A study of Mus musculus with 12 samples.

Results

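The mitotic genes described here are 42 listed genes of G2 phase and mitosis, chosen by name and kept where they had at least 30 reads summed over the 12 samples. The list was chosen with earlier results of these data known. Its counts set beside the shares of all genes below are therefore descriptions and no independent check. All 42 passed, among the 15138 genes tested of 56691 genes in the count table, and their reads over the 12 samples lay between 4270 for *Anln* and 290626 for *Top2a*. The samples were splenic CD4+ T cells of 12 Tg4 *Nr4a3*-Tocky *Il10*-GFP mice, 3 mice in each of 4 groups and 1 library per mouse. These mice carry a transgenic T cell receptor for a myelin basic protein (MBP) peptide, a GFP reporter of *Il10* and a fluorescent Timer protein made when *Nr4a3* is transcribed, and cells with both the blue and the red form of the Timer were sorted as responders to the antigen. All mice, controls included, were first primed under the skin with [4Y]-MBP peptide at 4 mg/kg. Antibody followed after 24 h, a second peptide dose of 0.4 mg/kg came 30 min after the antibody, and the spleens were removed 12 h after this second dose. The isotype group received pooled rat IgG1 and IgG2a, the anti-PD-L1 and anti-Lag3 groups each received 0.5 mg of their blocking antibody, and the CB (co-blockade) group received both antibodies mixed in equal parts. The labels give no age. The sort could admit any CD4+ cell with the Timer, and in the study's methods each group was stained for CD4 with a different dye so that 4 samples could be sorted together, so the dye and the treatment cannot be told apart. The labels do not say which samples were sorted together.

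Cells enter mitosis when cyclin B and Cdk1 form an active kinase, which Cdc25 phosphatases switch on and which Plk1 and the Aurora kinases assist. Condensin and topoisomerase II then compact and untangle the chromosomes, kinesins build and move the spindle, kinetochores tie the chromosomes to it, and the APC/C ubiquitin ligase starts anaphase by having securin and the cyclins destroyed. Most of these genes are silent in resting T cells and transcribed late in the cell cycle, and CD4+ T cells divide many times after they meet their antigen.

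Libraries held 16449370 to 22151025 reads on genes (median 19176439). The gene with the most reads, ENSMUSG00000119584, took between 14.3% of them in isotype sample 1 and 21.9% in CB sample 1. The kit reads the 3′ ends of transcripts and has no molecular identifiers, so that the spread between mice includes PCR noise. Values below are CPM, which are counts scaled to libraries of equal size by edgeR's TMM method (the usual counts-per-million unit), and a gene is called where its adjusted p is under 0.05 in the quasi-likelihood test of edgeR, adjusted by the Benjamini-Hochberg method over all 15138 genes. The 10 T cell markers, among them *Cd4*, *Cd3e* and *Trac*, summed to between 4179 and 4835 CPM. The B cell markers were led by *Ighm* (323 to 412 CPM), whereas *Ms4a1* reached 9.24 CPM and *Cd79a* 1.11 CPM at most in any sample. Y-linked genes came to 92.1 to 151 RPM (reads relative to the unscaled library) in isotype samples 1 and 2 and in sample 1 of each other group, and to at most 0.978 RPM in the other 7 samples. Those 7 had 233 to 511 RPM of *Xist*, whereas isotype sample 2 had 10.9 and the other 4 at most 0.114.

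Fewer reads of mitotic genes were counted in the CB group than in the isotype group. Between these groups 11 of the 42 genes were called lower and 0 higher (edgeR), where 1.96% of all genes tested were called lower and 2.33% higher, and 4.49% were called lower of the 5860 genes with at least as many reads as *Anln*. The fitted log2 fold change lay below 0 for 41 of the 42, against 49.5% of all genes, and its median over the members was -0.33, against 0.00 over all genes tested. An unadjusted p under 0.05 with a lower value was found for 24 members, against 7.26% of all genes. DESeq2's Wald test called 14 members lower and 0 higher, where it called 2.83% of all genes lower and 2.93% higher. In 23 members the 3 CB values were all below the 3 isotype values, as in 9.62% of all genes and 14.7% of those with at least the reads of *Anln*. The number called fell to 7 without isotype sample 1 or without CB sample 3, and *Mki67*, *Top2a*, *Cdc25b*, *Kif11*, *Smc4* and *Nusap1* were called whichever of the 12 samples was left out. In bulk RNA, fewer dividing cells and less mitotic RNA in each dividing cell cannot be told apart.

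The mean log2 CPM over the 42 genes was 7.55, 7.52 and 7.47 in the isotype samples, 7.45, 7.27 and 7.27 in the anti-PD-L1 samples, 7.42, 7.30 and 7.36 in the anti-Lag3 samples and 7.27, 7.15 and 7.15 in the CB samples. The isotype samples were the 3 highest and the CB samples overlapped with the anti-PD-L1 samples only. Sample 1, from a male mouse by these reads, was the highest of its group in all 4 groups. Among the female samples the level was 7.47 in the isotype group and 7.15 in both CB samples, and among the male ones it was 7.55 and 7.52 in isotype and 7.27 in CB. With sex as a covariate, added after the data were seen, the number of members called lower was again 11, the same genes, with a median of -0.27.

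**Figure D1:**
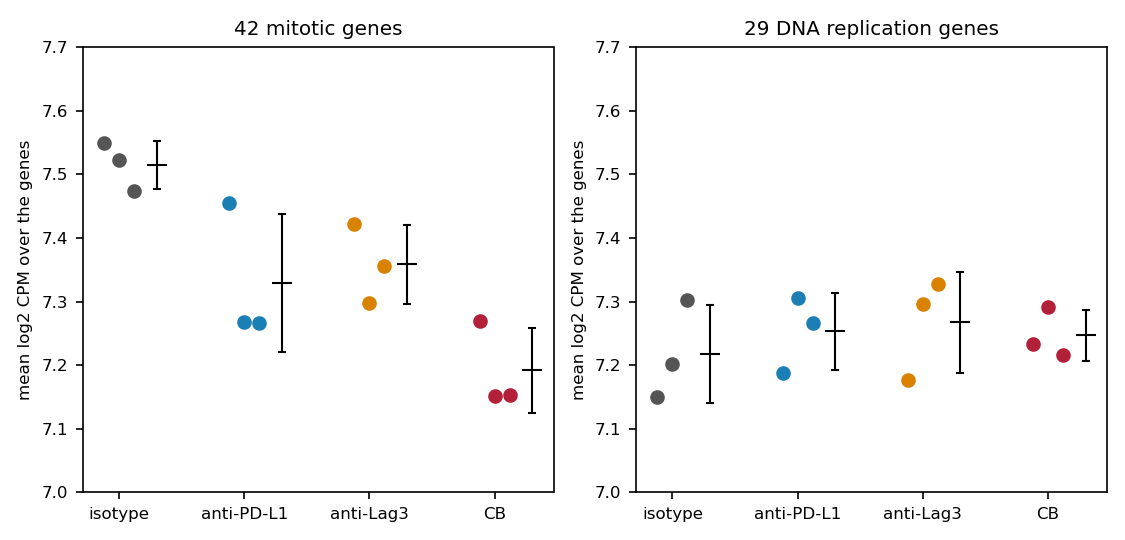
Mean log2 CPM over the 42 mitotic genes (left) and over 29 DNA replication genes (right), with 1 point per mouse and the mean and SD of each group (n = 3 mice) beside the points. The axis runs from 7.0 to 7.7 and does not start at 0. The mitotic genes lay highest in the 3 isotype samples, while the 4 groups overlapped for the replication genes.

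*Mki67* and *Top2a*, common markers of cycling cells, were both called lower in CB. *Mki67*, which encodes the Ki-67 protein that coats mitotic chromosomes (ENSMUSG00000031004, chromosome 7 from 135689784 to 135716361 of GRCm38, minus strand), had 443, 404 and 354 CPM in the isotype samples, 374, 307 and 307 in the anti-PD-L1 samples, 329.6, 329 and 306 in the anti-Lag3 samples and 288, 275 and 233 in CB. No CB sample overlapped with any other group. The log2 fold change of CB against isotype was -0.59 ± 0.11 (standard error, adjusted p = 0.0014, edgeR), which is 33.7% fewer reads in the group means. *Top2a*, the topoisomerase II that untangles sister chromatids (ENSMUSG00000020914, chromosome 11 from 98992943 to 99024189, minus strand), had 1488, 1531 and 1377 CPM in isotype, 1429.8, 1193 and 1176 in anti-PD-L1, 1333, 1208 and 1206 in anti-Lag3 and 1221, 974 and 1008 in CB. The anti-PD-L1 samples were spread widest, with 1 sample among the isotype samples. The log2 fold change of *Top2a* in CB was -0.46 ± 0.09 (adjusted p = 0.00223, edgeR).

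The members share sequence elements that the list did not use. RefSeq promoter windows of GRCm38.p6, which run from 250 bases before to 50 after a gene's start, were given for 36 of the 42 genes, as 38 windows. They were searched on both strands for TTTGAA, the core of the cell cycle homology region (CHR) at which the DREAM and MuvB complexes bind, and for CCAAT, the box bound by NF-Y, and neighbouring motifs may share bases. At least 1 TTTGAA was found in 81.6% of the members' windows, against 17.9% of the 32851 promoter windows of the table. CCAAT was found in 81.6% against 37.4%, and both in 71.1% against 6.95%. Among the 8 called genes with a window 6 held TTTGAA, and among the other 28 genes 23 did, and the counts for CCAAT were the same. The 200 bases before the RefSeq start of *Mki67* (chr7:135716380-135716579, minus strand) and of *Top2a* (chr11:99024190-99024389, minus strand) are shown because they hold several copies of each motif, in capitals on either strand.
Mki67: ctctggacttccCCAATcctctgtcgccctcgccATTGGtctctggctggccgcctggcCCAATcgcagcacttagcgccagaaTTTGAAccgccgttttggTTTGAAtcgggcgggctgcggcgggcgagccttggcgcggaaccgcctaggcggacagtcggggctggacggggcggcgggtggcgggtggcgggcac
Top2a: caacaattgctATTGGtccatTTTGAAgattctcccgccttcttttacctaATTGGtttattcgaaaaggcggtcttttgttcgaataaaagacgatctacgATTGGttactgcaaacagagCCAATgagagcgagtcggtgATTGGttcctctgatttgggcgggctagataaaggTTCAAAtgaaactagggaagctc
Between them they hold 2 TTTGAA each, and 3 CCAAT in *Mki67* and 5 in *Top2a*.

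**Figure D2:**
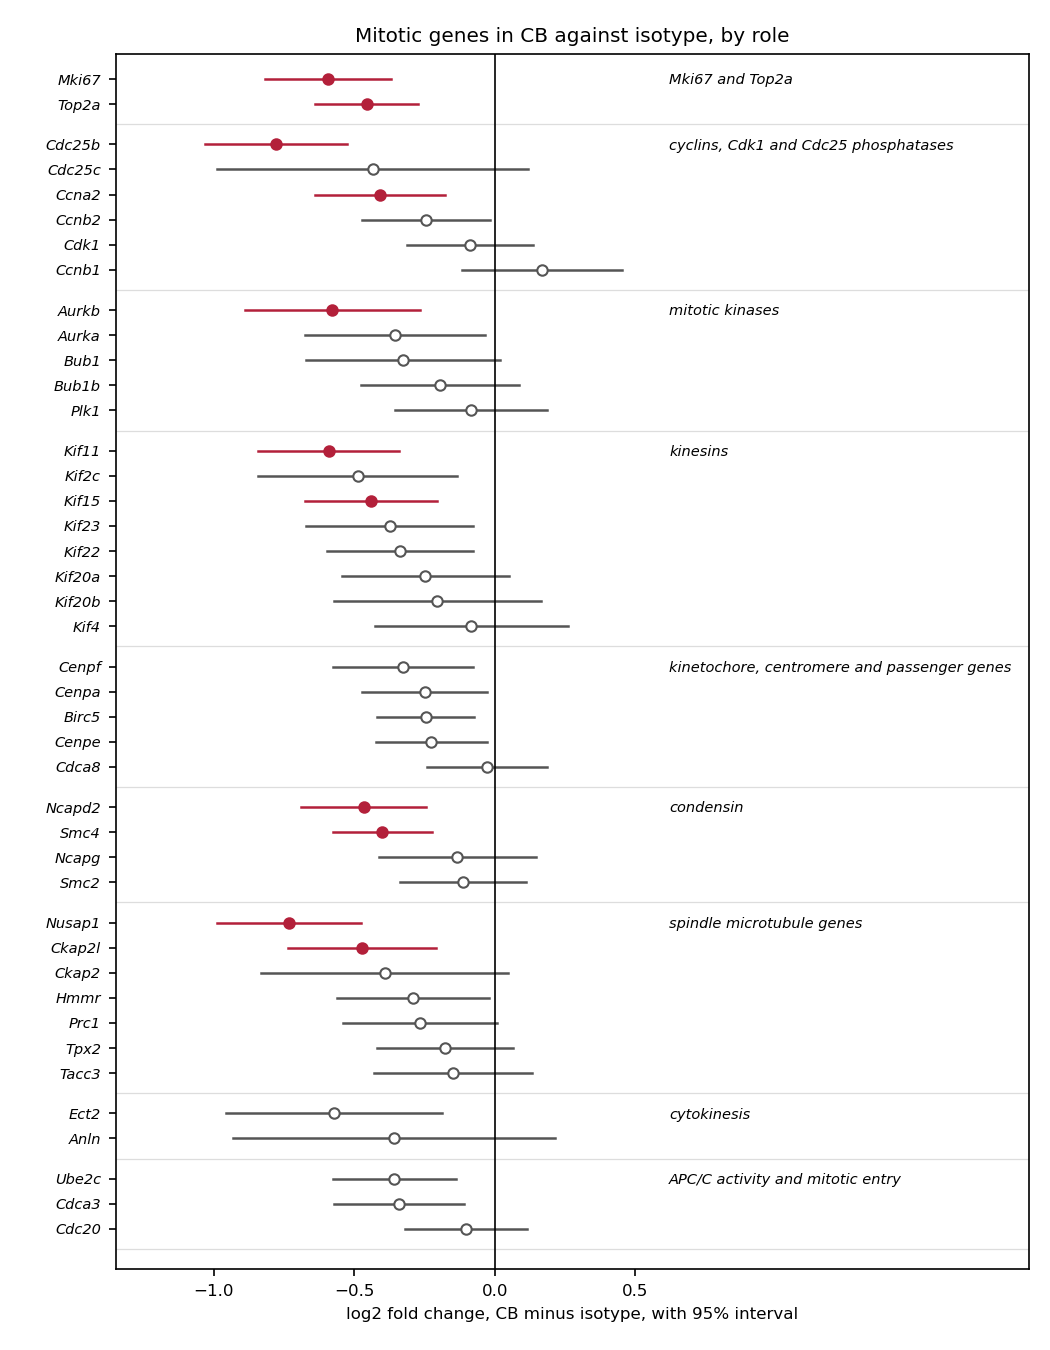
Log2 fold change of CB against isotype for each of the 42 members, grouped by role, with 95% intervals as lines (edgeR, n = 3 mice per group). Filled red points are the 11 genes called lower and open points are genes not called. *Ccnb1* is the only point right of 0.

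Of the 6 genes of the cyclin, Cdk1 and Cdc25 group 2 were called lower in CB. *Cdc25b*, the phosphatase that removes the inhibitory phosphates of Cdk1 at the start of mitosis (ENSMUSG00000027330, chromosome 2 from 131186949 to 131198497, plus strand), had the most negative fold change of the 42. It had 201, 205 and 191 CPM in isotype, 179, 162 and 177 in anti-PD-L1, 146, 193 and 187 in anti-Lag3 and 103, 115 and 129.9 in CB. Every CB sample lay below every sample of the other 3 groups. The log2 fold change against isotype was -0.78 ± 0.12 (adjusted p = 2.49e-04, edgeR), 41.7% fewer reads. *Ccna2*, cyclin A2 of S and G2 phase (ENSMUSG00000027715, chromosome 3 from 36564865 to 36572150, minus strand), had 305, 272 and 297 CPM in isotype, 217, 254 and 266 in anti-PD-L1, 287, 247 and 289 in anti-Lag3 and 223, 246 and 189 in CB. CB and isotype did not overlap (log2 fold change -0.41 ± 0.11, adjusted p = 0.0334, edgeR). The 3′ end of *Ccna2* lies over *Exosc9* on the opposite strand, and the strand setting of the counting is not given in the sources used here.

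The partners that form the mitotic kinase itself did not pass the test. *Ccnb1*, cyclin B1, had 189, 184 and 167 CPM in isotype, 249.996, 193 and 195 in anti-PD-L1, 246, 169 and 217 in anti-Lag3 and 237, 169 and 199 in CB, with all 3 anti-PD-L1 samples above the isotype samples. It was the only member with a fitted value above 0 in CB against isotype (0.17, 95% interval -0.12 to 0.45). *Cdk1* had 396, 379 and 296 CPM in isotype, 354, 354 and 312 in anti-PD-L1, 369.6, 349 and 382 in anti-Lag3 and 374, 309 and 324 in CB. The 4 groups overlapped for *Cdk1*, and its fold change in CB was -0.09 (95% interval -0.31 to 0.14). *Ccnb2* (-0.25) and *Cdc25c* (-0.44) were not called either, the latter with 5846 reads in all and the widest spread of the members. As a description of a pair named after its values were seen, the ratio of *Ccna2* to *Ccnb1* was 1.63 ± 0.148 in isotype and 1.12 ± 0.296 in CB (mean ± SD, n = 3). The windows of *Cdc25b* (chr2:131186748-131186947, plus strand), *Ccnb1* (chr13:100786487-100786686, minus strand) and *Cdk1* (chr10:69352913-69353112, minus strand) are shown because these genes of 1 step of mitotic entry had such different fold changes.
Cdc25b: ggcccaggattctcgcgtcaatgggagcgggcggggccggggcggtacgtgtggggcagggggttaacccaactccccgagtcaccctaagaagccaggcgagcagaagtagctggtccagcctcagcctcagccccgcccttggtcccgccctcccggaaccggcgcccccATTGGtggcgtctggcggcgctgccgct
Ccnb1: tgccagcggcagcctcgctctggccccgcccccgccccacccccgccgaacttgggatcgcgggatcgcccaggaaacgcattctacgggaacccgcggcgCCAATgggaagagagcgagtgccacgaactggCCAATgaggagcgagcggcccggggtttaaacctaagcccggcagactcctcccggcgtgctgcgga
Cdk1: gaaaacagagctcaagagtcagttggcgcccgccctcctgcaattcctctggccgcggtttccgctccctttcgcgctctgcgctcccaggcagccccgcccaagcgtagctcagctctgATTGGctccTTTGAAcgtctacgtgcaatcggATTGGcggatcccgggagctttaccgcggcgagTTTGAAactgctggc
Within these 200 bases *Cdk1* holds 2 TTTGAA and 2 CCAAT, *Ccnb1* holds 2 CCAAT and no TTTGAA, and *Cdc25b* holds 1 CCAAT and no TTTGAA. Only these exact sequences were counted, so a sequence without TTTGAA is not shown to lack a CHR. Whether the motifs bear on the fold changes was not tested.

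**Figure D3:**
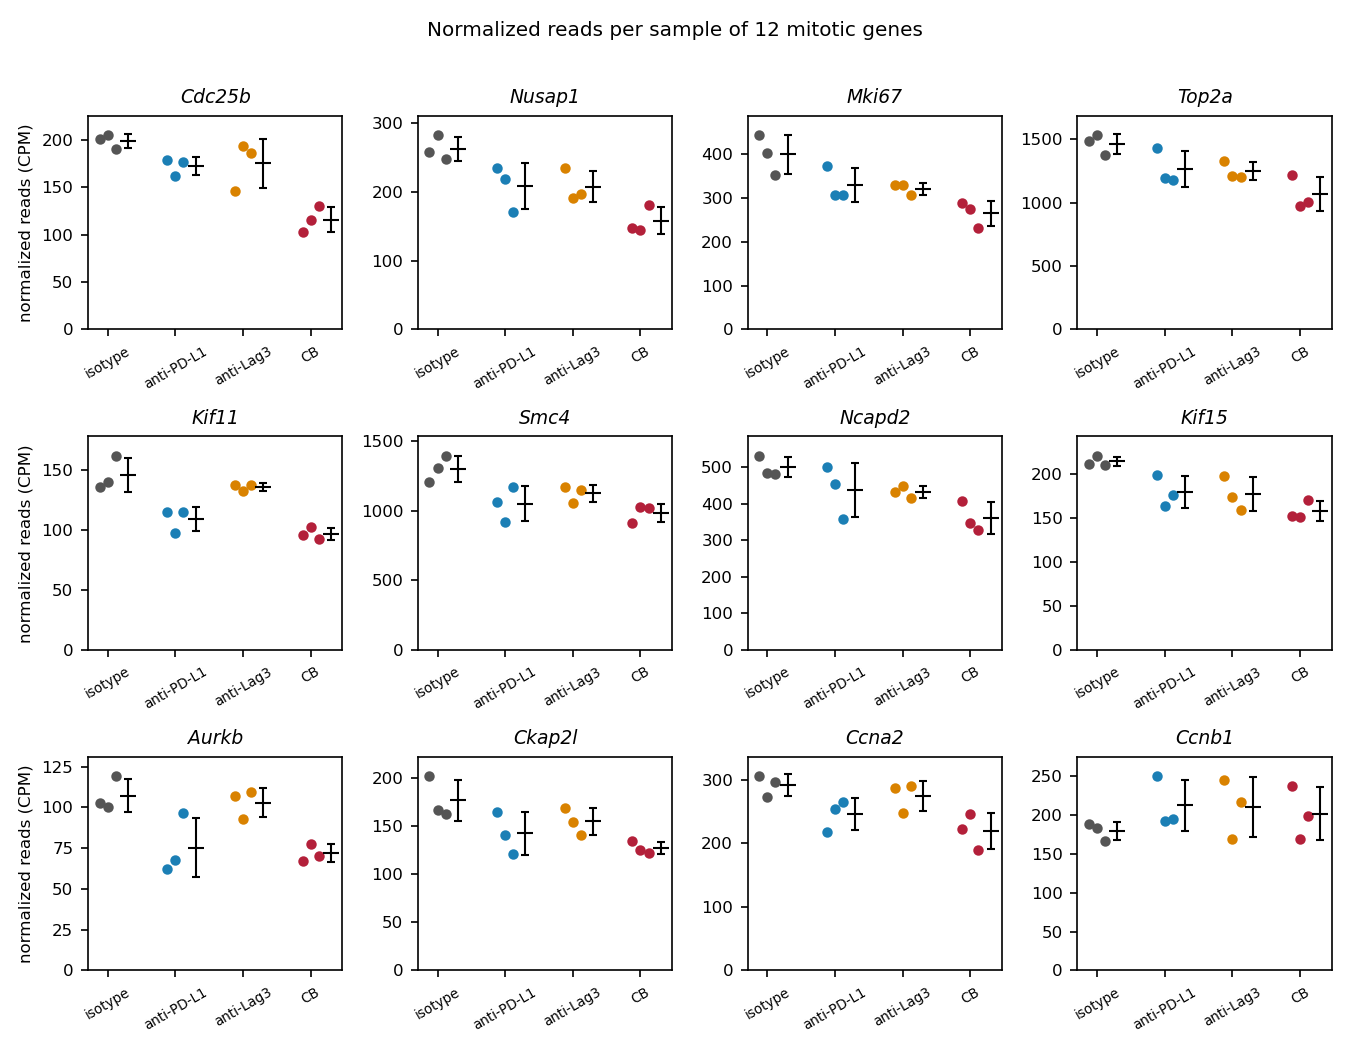
CPM of the 11 genes called lower in CB against isotype and of *Ccnb1*, with 1 point per mouse and the mean and SD of each group (n = 3 mice) beside the points, on axes that start at 0. In each of the 11 called genes the CB samples lay below the isotype samples, and for *Ccnb1* the CB and isotype samples overlapped.

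Among the 5 mitotic kinases *Aurkb* was called lower in CB. Aurora B, its product, is the kinase of the chromosomal passenger complex, which corrects faulty attachments to the spindle (ENSMUSG00000020897, chromosome 11 from 69045647 to 69051664, plus strand). *Aurkb* had 103, 100.2 and 119 CPM in isotype, 62.2, 67.7 and 96.4 in anti-PD-L1, 107, 92.9 and 109 in anti-Lag3 and 67.3, 77.9 and 70.5 in CB. The CB samples lay below all isotype and all anti-Lag3 samples and among the anti-PD-L1 samples (CB against isotype: log2 fold change -0.58 ± 0.15, adjusted p = 0.0229, edgeR). *Plk1*, the kinase of mitotic entry and centrosome maturation, had 419.6, 373 and 303 CPM in isotype, 420.4, 395 and 316 in anti-PD-L1, 404, 331 and 286 in anti-Lag3 and 395, 319 and 319 in CB. Its groups overlapped, and its log2 fold change was -0.09 (95% interval -0.36 to 0.19). The spindle kinase *Aurka* (-0.36) and the checkpoint kinases *Bub1* (-0.33) and *Bub1b* (-0.20) were not called.

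All 8 kinesins had fitted values below 0 in CB, and 2 were called. *Kif11*, also named Eg5, which slides antiparallel microtubules apart to make the spindle bipolar (ENSMUSG00000012443, chromosome 19 from 37376403 to 37421859, plus strand), had 136, 140.2 and 162 CPM in isotype, 115, 97.4 and 115 in anti-PD-L1, 138, 132 and 138 in anti-Lag3 and 95.7, 102 and 92.3 in CB. Its CB samples lay below all isotype and all anti-Lag3 samples and overlapped with the anti-PD-L1 samples. The log2 fold change in CB was -0.59 ± 0.12 (adjusted p = 0.00349, edgeR). *Kif15*, which can hold the bipolar spindle together with Kif11 (ENSMUSG00000036768, chromosome 9 from 122951046 to 123018733, plus strand), had 212, 221 and 211 CPM in isotype, 199, 164 and 176 in anti-PD-L1, 199, 175 and 159.6 in anti-Lag3 and 152, 151 and 171 in CB. The isotype samples of *Kif15* lay above all 9 others (CB: -0.44 ± 0.11, adjusted p = 0.0208, edgeR). The other 6 were not called, from *Kif2c*, a depolymerase at centromeres (-0.49), *Kif23* of the midzone (-0.38) and *Kif22* of the chromosome arms (-0.34) to *Kif20a* (-0.25, its 3′ end under *Cdc23* on the opposite strand), *Kif20b* (-0.20) and the chromokinesin *Kif4* (-0.08).

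None of the 5 kinetochore, centromere and passenger genes was called between CB and isotype by edgeR, while 4 had an unadjusted p under 0.05 and DESeq2's Wald test called 1, *Birc5*. *Birc5*, survivin of the passenger complex, was the member with the smallest spread within groups, with 591, 595 and 586 CPM in isotype, 587, 584 and 506 in anti-PD-L1, 537, 520.2 and 556 in anti-Lag3 and 509, 503 and 483 in CB. Its CB samples lay below all isotype samples by a small step (log2 fold change -0.25 ± 0.08, adjusted p = 0.109, edgeR). The fold changes of *Cenpf* (-0.33), of the centromeric histone *Cenpa* (-0.25) and of the kinetochore motor *Cenpe* (-0.23) were of the same order. *Cdca8*, borealin, which sits in the same passenger complex as Aurora B and survivin, was at -0.03 (95% interval -0.24 to 0.18). The ratio of *Aurkb* to *Cdca8*, named after the values were seen, was 0.388 ± 0.0750 in isotype, 0.282 ± 0.0843 in anti-PD-L1, 0.405 ± 0.0322 in anti-Lag3 and 0.264 ± 0.0369 in CB.

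Of the 4 condensin genes 2 were called lower in CB. *Smc4*, an ATPase of the condensin ring (ENSMUSG00000034349, chromosome 3 from 69004738 to 69034623, plus strand), had 1206, 1302 and 1392 CPM in isotype, 1061, 917 and 1165 in anti-PD-L1, 1170.3, 1057 and 1146 in anti-Lag3 and 910.4, 1024 and 1018 in CB. All isotype samples lay above all 9 others (CB: -0.40 ± 0.09, adjusted p = 0.00521, edgeR). *Ncapd2*, a HEAT-repeat subunit of condensin I (ENSMUSG00000038252, chromosome 6 from 125168007 to 125191701, minus strand), had 532, 486 and 483 CPM in isotype, 501, 455 and 358 in anti-PD-L1, 432, 450.2 and 417 in anti-Lag3 and 409, 348 and 327 in CB. CB and isotype did not overlap (-0.47 ± 0.11, adjusted p = 0.00965, edgeR). Their partners in the same complex were nearer to 0, with -0.11 for *Smc2* (95% interval -0.34 to 0.11) and -0.13 for *Ncapg* (-0.41 to 0.14). The ratio of *Smc4* to *Smc2* was 3.36 ± 0.331 in isotype, 2.95 ± 0.217 in anti-PD-L1, 3.12 ± 0.0719 in anti-Lag3 and 2.74 ± 0.259 in CB, given as a description since the pair was named after its values were seen.

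Of the 7 spindle microtubule genes 2 were called lower in CB. *Nusap1*, which bundles spindle microtubules at the chromosomes (ENSMUSG00000027306, chromosome 2 from 119618298 to 119651244, plus strand), had 258, 281 and 247 CPM in isotype, 235, 218 and 171 in anti-PD-L1, 234, 191 and 197 in anti-Lag3 and 148, 145 and 180.2 in CB. The isotype samples lay above all others, and CB overlapped with anti-PD-L1 (CB against isotype: -0.73 ± 0.13, adjusted p = 6.48e-04, edgeR). *Nusap1* overlaps *Oip5* on the opposite strand, which does not cover the 3′ end of *Nusap1*. *Ckap2l*, a protein of spindle poles (ENSMUSG00000048327, chromosome 2 from 129268210 to 129297212, minus strand), had 202, 167 and 163 CPM in isotype, 165, 141 and 121 in anti-PD-L1, 169, 155 and 141 in anti-Lag3 and 135, 126 and 123 in CB (CB against isotype: -0.47 ± 0.13, adjusted p = 0.0292, edgeR). Its CB samples lay below all isotype and all anti-Lag3 samples. The fold changes of *Ckap2* (-0.39), *Hmmr* (-0.29), *Prc1* (-0.27), *Tpx2* (-0.18) and *Tacc3* (-0.15) did not pass.

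Neither cytokinesis gene and none of the 3 genes of APC/C activity and mitotic entry was called by edgeR between CB and isotype, while 1 and 2 of them had an unadjusted p under 0.05, and DESeq2's Wald test called *Ube2c* and *Cdca3*. *Ect2*, the exchange factor that activates RhoA at the cleavage furrow, had 68.6, 56.1 and 61.4 CPM in isotype, 52.6, 32.8 and 48.1 in anti-PD-L1, 41.6, 55.7 and 48.2 in anti-Lag3 and 47.2, 38.8 and 39.0 in CB. Every isotype sample of *Ect2* lay above every other sample (CB: -0.57 ± 0.19, adjusted p = 0.0875, edgeR). *Ube2c*, the ubiquitin-conjugating enzyme of the APC/C, had 528, 524 and 469 CPM in isotype, 500.2, 417 and 404 in anti-PD-L1, 478, 400.1 and 418 in anti-Lag3 and 441, 341 and 404 in CB (-0.36 ± 0.11, adjusted p = 0.0529, edgeR). *Cdc20*, which carries substrates to the APC/C, was at -0.10 (95% interval -0.32 to 0.11), with its 3′ end under *Elovl1* on the opposite strand, *Cdca3* at -0.34 and *Anln*, the anillin of the contractile ring, at -0.36.

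Neither antibody alone gave a call among the members by edgeR. Between anti-PD-L1 and isotype 0 members were called lower, as were 0% of all genes, and 0 higher, as were 0.033%. An unadjusted p under 0.05 was found for 16, each of them lower, against 4.03% of all genes. DESeq2's Wald test called 1, *Smc4* (-0.31 in edgeR), where it called 0.165% of all genes lower. The median was -0.16, 38 of the 42 lay below 0 (51.6% of all genes), and in 13 every anti-PD-L1 sample lay below every isotype sample, where 6.46% of all genes did so. Between anti-Lag3 and isotype 0 members were called, as were 0% of all genes, 7 had a lower value with an unadjusted p under 0.05 (2.3% of all genes), and DESeq2 called 0. The median was -0.15, with 38 of 42 below 0 (50.6% of all genes) and 12 that did not overlap, against 4.81% of all genes.

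The 2 antibodies alone share the isotype samples, so their values are set side by side. *Mki67* had -0.28 (anti-PD-L1) and -0.31 (anti-Lag3), *Top2a* -0.21 and -0.23, *Nusap1* -0.33 and -0.34, *Kif15* -0.25 and -0.27, and *Ncapd2* -0.19 and -0.21. In the same order *Aurkb* had -0.51 and -0.06, and *Kif11* -0.42 and -0.10. *Kif20b*, a kinesin of the midzone, had -0.09 and -0.51. The direct comparison of anti-PD-L1 with anti-Lag3 called 0 members and 0% of all genes (edgeR), with a median of 0.01. An unadjusted p under 0.05 was found for 5 members, *Aurkb*, *Kif11*, *Ckap2* and *Cenpf* lower and *Kif20b* higher with anti-PD-L1. Of all 15138 genes tested, 412 were lower and 298 higher at that level. DESeq2 called 0 members as well.

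**Figure D4:**
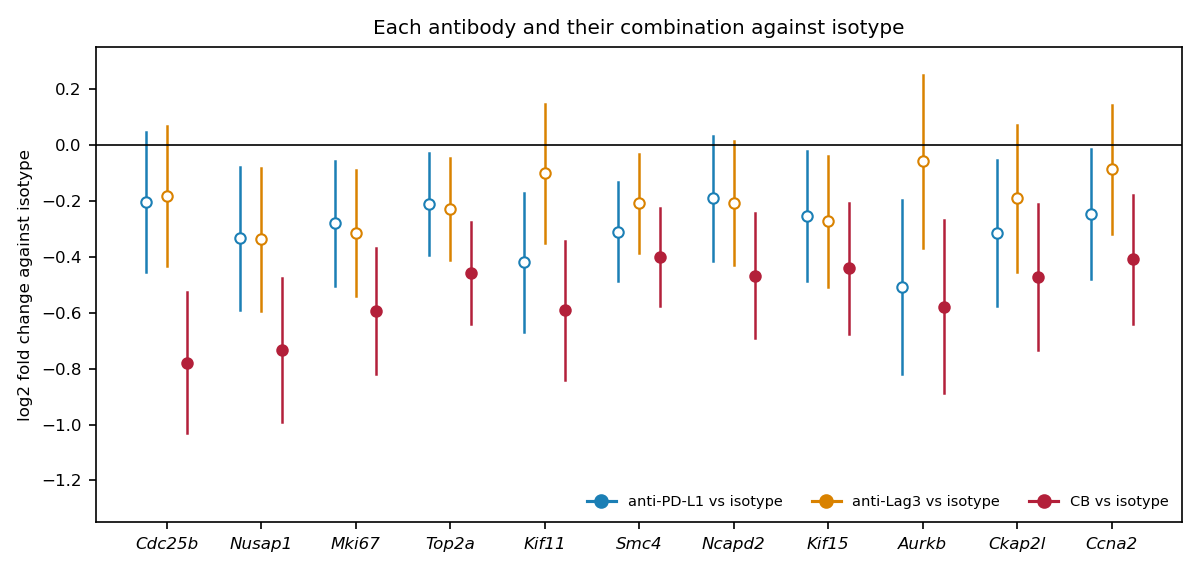
Log2 fold change of anti-PD-L1, of anti-Lag3 and of CB, each against isotype, for the 11 members called in CB against isotype, with 95% intervals as lines (edgeR, n = 3 mice per group). The 3 comparisons share the isotype samples. Filled points are called and open points are not, and for each of the 11 genes the point of CB is the lowest.

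CB against each antibody alone called 1 member, *Cdc25b*. Against anti-PD-L1 it was at -0.58 ± 0.12 (adjusted p = 0.0322, edgeR), where 0.165% of all genes were called lower and 0.205% higher. Against anti-Lag3 it was at -0.60 ± 0.12 (adjusted p = 0.0136, edgeR), where 0.304% were called lower and 0.39% higher. DESeq2's Wald test also called *Cdc25b* alone against anti-PD-L1, while in the comparison with anti-Lag3 it called *Cdc25b*, *Kif11* and *Aurkb*, where its calls took in 0.595% and 0.918% of all genes as lower in these comparisons. The call against anti-PD-L1 was lost when any 1 of the 6 samples compared was left out (fold changes from -0.66 to -0.50). The call against anti-Lag3 was lost without anti-Lag3 sample 2 or 3 or CB sample 1 (-0.71 to -0.52 over all samples left out). *Kif11* came next against anti-Lag3 (-0.49 ± 0.12, adjusted p = 0.0564, edgeR), and *Nusap1* next against anti-PD-L1 (-0.40 ± 0.12, adjusted p = 0.218, edgeR). The medians over the members were -0.14 against anti-PD-L1, with 34 of 42 below 0 (48.4% of all genes) and a median of -0.080 without anti-PD-L1 sample 1, and -0.15 against anti-Lag3, with 37 below 0 (49.2%).

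The interaction, which is CB minus anti-PD-L1 minus anti-Lag3 plus isotype, asks whether the combination differs from the sum of both antibodies. Its median over the members was 0.00 and it called 0 members and 0% of all genes (edgeR), with 1 member at an unadjusted p under 0.05, *Cdc25b* (-0.39, 95% interval -0.75 to -0.04, adjusted p = 0.804, edgeR). At that unadjusted level 428 of all 15138 genes tested were below 0 and 470 above. DESeq2's Wald test called 0 members. *Mki67* was at 0.00 and *Top2a* at -0.02 in the interaction.

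Over the members, the isotype group had the highest of the 4 group means in 35 genes and CB the lowest in 29. CB was highest in 0. The single sample with the highest value was an isotype sample in 33 genes and a CB sample in 1, and the sample with the lowest value was a CB sample in 25 genes, an anti-PD-L1 sample in 11, an anti-Lag3 sample in 4 and an isotype sample in 2. These orders were not counted over all genes, so they describe the members only. The SD within groups on the log2 scale was 0.16 in the median member, between 0.07 for *Birc5* and 0.37 for *Cdc25c*, and 0.21 in the median gene with at least the reads of *Anln*.

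Other genes of mitosis were counted from lists that hold no member. Of 14 other condensin and cohesin genes all 14 were fitted below 0 between CB and isotype (49.5% of all genes), with a median of -0.22. Of these, edgeR called 2 lower, both of condensin, where it called 1.96% of all genes lower. DESeq2's Wald test also called *Stag2* of cohesin lower, where it called 2.83% of all genes lower. *Ncapg2* of condensin II had 77.7, 83.2 and 67.0 CPM in isotype and 39.3, 54.7 and 42.8 in CB (-0.74 ± 0.17, adjusted p = 0.0109, edgeR), and *Ncaph* of condensin I had 113, 104 and 106 in isotype and 73.9, 67.5 and 75.4 in CB (-0.57 ± 0.14, adjusted p = 0.0162, edgeR). In both genes the CB values were lower without overlap. Of 8 other motors and midzone genes 7 lay below 0 and 1 above, at 1.25, with its CB values above all isotype values. Among the 8 edgeR called 1 lower, *Cit*, the citron kinase of the midbody (-0.62 ± 0.14, adjusted p = 0.00782, edgeR). It had 129 to 134 CPM in isotype and 74.3 to 97.6 in CB. DESeq2's Wald test also called *Cep55* lower.

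Of 33 other kinetochore genes 25 lay below 0 (49.5% of all genes), and 8 were lower at an unadjusted p under 0.05 (7.26% of all genes). None of them was called lower by edgeR (1.96% of all genes) and 3 were by DESeq2 (2.83%), *Cenpl*, *Hjurp* and *Sgo2a*. Called higher by both was 1, *Cenpw*, where edgeR called 2.33% of all genes higher and DESeq2 2.93%. *Cenpw*, a histone-fold protein of the inner kinetochore, had 129, 149 and 132 CPM in isotype and 174, 180 and 192 in CB (0.41 ± 0.11, adjusted p = 0.0230, edgeR). Among 22 other genes of the checkpoint and the APC/C 0 were called by edgeR and 3 were lower at an unadjusted p under 0.05 (7.26% of all genes). The smallest p was that of *Anapc5* (-0.34, adjusted p = 0.0553, edgeR), which DESeq2 called. Of 34 regulators of mitotic transcription and entry 22 lay below 0 and 12 above, between -1.01 and 1.08. Of these edgeR called 1 lower in CB, where it called 1.96% of all genes lower. This was *Cdkn1b*, the CDK inhibitor p27 (-0.65 ± 0.15, adjusted p = 0.00969, edgeR), with 87.2 to 98.5 CPM in isotype and 45.8 to 66.2 in CB. DESeq2's Wald test also called *E2f2* lower.

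Of 29 genes of DNA replication, the step before G2, 0 were called between CB and isotype by edgeR and 2 by DESeq2 (*Rrm1* and *Mcm5*, both lower). At an unadjusted p under 0.05 there were 4 in each direction, where 1099 of all 15138 genes were lower and 1157 higher. The median over the 29 replication genes was -0.05. Their mean log2 CPM was 7.22 ± 0.08 in isotype, 7.25 ± 0.06 in anti-PD-L1, 7.27 ± 0.08 in anti-Lag3 and 7.25 ± 0.04 in CB (SD, n = 3), and the groups overlapped. The difference between the shift of these genes and that of the mitotic genes was not tested. The smallest p was that of *Rrm1*, a subunit of ribonucleotide reductase (-0.33, adjusted p = 0.0517, edgeR).

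Some markers of T cells and of other cells differed between the same groups. Of the 10 T cell markers *Cd4* (-0.50, adjusted p = 0.00918, edgeR) and *Cd3e* (-0.39, adjusted p = 0.0401, edgeR) were called lower in CB against isotype, and the list summed to 4624 to 4802 CPM in isotype and to 4179 to 4269 in CB. The 9 erythroid markers summed to 316 to 502 CPM in isotype and 251 to 326 in CB, which overlapped, and differed among themselves. Of these, *Tfrc*, the transferrin receptor that activated T cells also make, was called higher in CB (0.76, adjusted p = 0.0292, edgeR), with 48.0 to 75.1 CPM in isotype and 77.1 to 125.6 in CB. The globin genes *Hba-a1*, *Hba-a2*, *Hbb-bs* and *Hbb-bt* summed to 241 to 442 CPM in isotype and 149 to 198 in CB, while *Alas2* and *Klf1* of red cell precursors reached 7.1 and 4.05 CPM at most in any sample. *Cd8a* and *Cd8b1* summed to 40.9 to 45.3 CPM in isotype and 25.0 to 33.2 in CB. Their part in the lower counts of mitotic genes was not tested.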

How the data were processed

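RNA of responder CD4+ T cells was measured in 12 mice, 3 per group, by 3′ mRNA sequencing (QuantSeq). The authors deposited raw counts of uniquely mapped reads per Ensembl gene, made per the labels with cutadapt 1.18, STAR 2.6.1a and featureCounts 1.6.4 on GRCm38, with neither the strand setting nor the annotation release given in the sources used here. They also deposited log2 values from the regularised log transformation of DESeq2, used here only as an alternative for the mean level of the members, which was otherwise taken from log2 CPM with a prior count of 2. Spike-ins (0.719 to 1.29% of reads) were left out of library sizes. Symbols and coordinates came from GENCODE M21, for 52073 of 56691 genes.

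Genes with at least 30 reads over the 12 samples were fitted in edgeR 4.0.16 (R 4.3.3) with TMM scaling and 1 mean per group over all 12 samples. The 6 pairs of groups and the interaction were tested by the quasi-likelihood test, with Benjamini-Hochberg adjustment over 15138 genes. The alternatives were DESeq2 1.42.0 (Wald test against 0 and against 0.2, and its size factors), other filters, fits of only the groups compared, a replicate block, sex as a covariate (chosen after seeing the data) and leaving out each sample. The members and lists were chosen with earlier results of these data known. Values in every sample are given for each called member, for the member with the smallest p of each role in CB against isotype, and for Mki67, Top2a, Cdk1, Ccnb1, Aurkb and Plk1. Of the other lists, called genes or else the gene with the smallest p are named, and others were named after their values were seen. The code was tested on simulated data. Promoter windows were those of RefSeq on GRCm38.p6, with no window for Ccna2, Cdc25c, Tpx2, Aurkb, Smc4 and Kif20a.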

Additional observations from a re-analysis of the deposited data

How the results depend on the processing

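The number of members called lower in CB against isotype was 11 and lay between 11 and 14 under the other settings, except for the DESeq2 test of changes beyond 0.2 on the log2 scale, which called 4 (*Cdc25b*, *Kif11*, *Mki67* and *Nusap1*). Leaving out 1 sample gave 7 to 12. For anti-PD-L1 against isotype DESeq2's Wald test called 1, *Smc4*. For CB against anti-PD-L1 the count was 0 with DESeq2's test against 0.2 and in the fit of only the groups compared, and 0 to 1 with 1 sample left out. For CB against anti-Lag3 it was 2 with the replicate block, with sex as a covariate and in the fit of only the groups compared, 3 with no filter and with DESeq2's Wald test, 0 with its test against 0.2, and 0 to 2 with 1 sample left out. The median of anti-PD-L1 against anti-Lag3 ranged from -0.067 to 0.061 with 1 sample left out. With sex as a covariate the log2 fold change in CB against isotype turned to 0.029 for *Plk1* and 0.015 for *Cdca8*. With 1 sample left out it ranged from -0.21 to 0.026 for *Plk1*, -0.28 to 0.030 for *Kif4*, -0.10 to 0.068 for *Cdca8* and -0.18 to 0.0061 for *Cdc20*. The cause was not tested. Calls lost in some of these 12 fits were those of *Ccna2* (4 fits), *Kif15* (4), *Ckap2l* (4), *Aurkb* (3) and *Ncapd2* (2). The labels do not tie replicate numbers to a shared sort. Samples with the same number correlated between -0.054 and 0.15 in their deviations from the group means over expressed genes (0.056 to 0.15 for number 1, each of them from a male mouse). Samples with different numbers correlated between -0.13 and 0.11 over these genes. Over the members the range was -0.44 to 0.63 for the same number and -0.50 to 0.53 for different numbers. The best correlation was with a sample of the same number for 8 of 12 samples over expressed genes and for 4 of 12 over the members. The mean correlation was higher with samples of the own number for 10 of 12 samples over expressed genes and for 7 of 12 over the members. The medians over expressed genes were 0.057 for the same number and -0.018 for different numbers. The study reports that its second axis of variation between samples largely reflected sort batches. Since the labels do not give these batches, the numbers were not taken as pairs in the main fit. The replicate block gave 12 members lower in CB against isotype, with *Ube2c* added. The mean level of the 42 members, relative to that over the 12 samples, was 0.17 in isotype and -0.16 in CB, and 0.12 and -0.11 with the authors' log2 values. The interaction could not be fitted on only the groups compared, since it uses all 4. Nothing states that reads were counted by strand, so *Ccna2*, *Cdc20* and *Kif20a* cannot be separated at their 3′ ends from *Exosc9*, *Elovl1* and *Cdc23*. The same holds for *Ncapg* under *Lcorl*, *Prc1* under *Rccd1* and *Ube2c* under *Tnnc2* (27 reads). *Ckap2l* lies under *Gm14024*, which had 0 reads. *Oip5* overlaps *Nusap1* without covering its 3′ end. The 3 mice per group limit what single genes can show.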
